A study of Homo sapiens with 6 samples.

Results

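The genes described here encode the plasminogen activators, their receptors and their inhibitors. They were taken by gene symbol, by a rule that sets no threshold on a measured value, but with earlier results of these data known. They are PLAU and PLAT (activators), PLAUR and PLGRKT (receptors), and SERPINE2 and SERPINB2 (inhibitors). These are 6 of the 20461 Ensembl genes in the tables. The transcriptome of ARPE-19, a human retinal pigment epithelial (RPE) cell line, was sequenced to ask how overexpression of PDZK1 changes cells held in high glucose. PDZK1 is a scaffold protein whose PDZ domains bind membrane transporters. One group carried a control lentivirus and the other a PDZK1 overexpression lentivirus, with 3 libraries in each group. Both groups were transduced at a multiplicity of infection of 10, selected with 4 µg/ml puromycin and then kept in 37.5 mM glucose for 48 h, so no library here shows the cells without high glucose or without a virus. Nothing in the labels says that the libraries of a group came from separate cultures, so the p-values measure the spread between these libraries, which may be technical. The study's methods speak of independent experiments for its data in general and do not name these libraries.

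Plasminogen circulates as an inactive precursor until urokinase (PLAU) or tissue plasminogen activator (PLAT) cuts it into plasmin, a protease that degrades fibrin and, with other proteases, extracellular matrix. The urokinase receptor (PLAUR) holds urokinase at the cell surface and PLGRKT holds plasminogen there, while serpins such as SERPINE2 (protease nexin-1) and SERPINB2 (plasminogen activator inhibitor 2) trap the activators. The RPE rests on Bruch's membrane, a layered matrix whose turnover depends on proteases of this kind.

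The shallowest library was control replicate 3, with 27970618 counts, and the deepest PDZK1 replicate 2, with 32804567, so that 3 counts corresponded to 0.0915 to 0.107 CPM (counts scaled to library size, with TMM factors) across the libraries. On the second principal component control replicate 3 scored -29.99, while the other controls scored 14.45 and 18.79. PDZK1 had 19, 18 and 23 counts in the controls and 3020, 2541 and 2828 counts in the PDZK1 libraries, which fits the labels. Of 11 RPE markers, 8 had enough counts to be tested and 0 passed the test in edgeR (0 at an unadjusted p under 0.05, and 0 in DESeq2 or limma-voom). This does not show that they were unchanged. Of the 8, 4 were fitted higher and 4 lower. BEST1 (log2 fold change 4.55) was at 358 CPM in PDZK1 replicate 1 and at 4.32 to 5.60 CPM in the other libraries. SERPINF1 was at 1.24 CPM in the controls and 0.697 CPM in the PDZK1 libraries, without overlap (-0.83, edgeR unadjusted p = 0.0525). The epithelial keratin KRT8 stood at 1152 ± 74.3 CPM in the controls, whereas RPE65, an enzyme that defines mature RPE, had 0 counts in all libraries. The defining markers of endothelium (CDH5) and leukocytes (PTPRC) were also at 0 counts in all libraries. Of the 6 endothelial and leukocyte markers, 2 had enough counts to be tested, VWF and CD68, a lysosomal protein not limited to leukocytes. CD68 stood at 146 CPM in the controls and 125 CPM in the PDZK1 libraries (edgeR adjusted p = 0.134, past the threshold in DESeq2), and its part in the results was not tested. In bulk RNA a change in the number of cells that express a gene and a change in RNA per cell cannot be told apart.

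PLAU was the member that passed the main edgeR test, its mRNA 1.90-fold higher with PDZK1 overexpression (95% interval 1.68 to 2.15). SERPINB2 had the largest fitted difference, 3.55-fold higher (interval 1.62 to 7.80). Its libraries spread widely, and it did not pass the main edgeR test. It did pass in DESeq2 (adjusted p = 0.00165) and in a non-robust edgeR fit (adjusted p = 0.0266). PLAUR was fitted lower and SERPINE2 higher, each by 0.20 on the log2 scale, and neither passed. PLAT and PLGRKT were fitted close to 0. Of the 6 members, all tested, 1 passed the threshold of an adjusted p-value under 0.05 in edgeR's quasi-likelihood test, beside 3.83% of the 13645 genes tested. That call was in the higher direction (1.41% of all genes tested), and 0 members were called lower (2.41% of all genes tested), also in DESeq2 and limma-voom, although 1 of those fitted lower, PLAUR, had an unadjusted p under 0.05. At an unadjusted p under 0.05 there were 4 members, PLAU, PLAUR, SERPINE2 and SERPINB2, beside 17.5% of all genes tested. The CPM of the groups did not overlap for 3 members (PLAU, PLAUR and SERPINB2), beside 23.9% of all genes tested. The median log2 fold change of the members was 0.12, beside -0.00025 over all genes tested. Because the members were chosen with earlier results of these data known, nothing is read from these shares or this median.

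**Figure D1:**
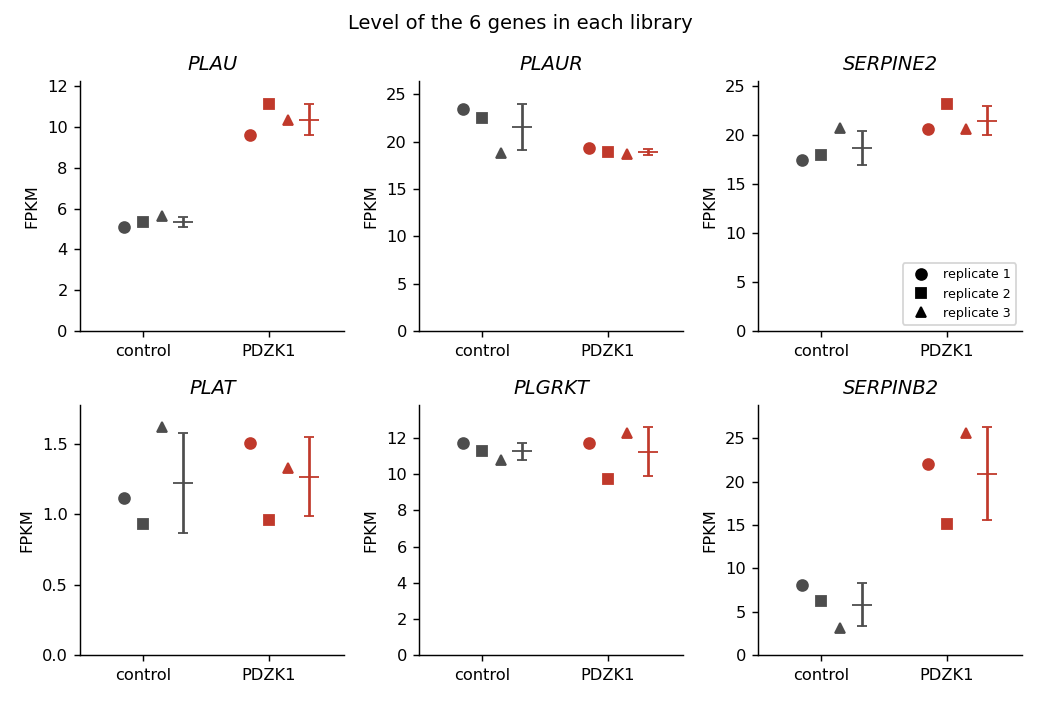
FPKM of each gene in each library (points, 3 per group, marker shape by replicate number), with the group mean and SD beside them, and all axes starting at 0. The PLAU and SERPINB2 points of the PDZK1 libraries all lie above the control points, while the groups overlap for PLAT, PLGRKT, PLAUR and SERPINE2.

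PLAU (ENSG00000122861) lies on the plus strand at chr10:73909177-73917497 (GRCh38, GENCODE release 29) and encodes urokinase, the activator that works mainly at the cell surface. Control replicates 1, 2 and 3 held 421, 422 and 398 counts, and PDZK1 replicates 1, 2 and 3 held 780, 919 and 816, the order kept for every gene that follows. Scaled for depth, these were 13.0, 13.7 and 14.4 CPM in the controls and 24.3, 28.0 and 25.7 CPM in the PDZK1 libraries. Every PDZK1 library lay well above every control library, and the spread within each group was small. The means were 13.7 ± 0.697 CPM (SD, n = 3) and 26.0 ± 1.87 CPM (SD, n = 3), and the log2 fold change was 0.93 (SE 0.079, edgeR adjusted p = 0.000326). It passed the threshold in all 20 alternative analyses, where the log2 fold change ran from 0.84 to 0.97. C10orf55 overlaps PLAU on the opposite strand in the annotation, and since the counting is not stated to use strand, reads of PLAU and C10orf55 cannot be separated.

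Over all genes with a mean of at least 5 CPM (11095 compared), the 3 whose library-by-library pattern was most like that of PLAU were EDIL3, MLPH and APOBEC3C. Likeness was measured as the root mean square difference in centred log2 CPM over the 6 libraries. EDIL3, which encodes a secreted integrin-binding matrix protein, differed from PLAU by 0.0894 and stood at 17.1 CPM in the controls and 31.9 CPM in the PDZK1 libraries. MLPH, melanophilin, which links melanosomes to their motor, differed by 0.102 and stood at 24.5 and 44.2 CPM. APOBEC3C, a cytidine deaminase, differed by 0.111 and stood at 4.94 and 8.33 CPM. Being chosen for likeness to PLAU, these genes are a description and carry no test.

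PLAT (ENSG00000104368) lies on the minus strand at chr8:42175233-42207724 and encodes tissue plasminogen activator, best known for dissolving clots. Its counts were 120, 96 and 136 in the controls and 146, 105 and 139 in the PDZK1 libraries. In CPM these were 3.71, 3.11 and 4.93 against 4.56, 3.20 and 4.38. The groups overlapped, with replicate 2 the lowest of its group in both. The means were 3.92 ± 0.927 and 4.05 ± 0.736 CPM (SD, n = 3), a log2 fold change of 0.05 with an interval of -0.43 to 0.53 (edgeR adjusted p = 0.939). The sign of the fitted value turned when any of 3 libraries was left out, control replicate 2 (-0.093), PDZK1 replicate 1 (-0.043) or PDZK1 replicate 3 (-0.012).

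PLAUR (ENSG00000011422, minus strand, chr19:43646095-43670547) encodes the urokinase receptor, which is anchored in the membrane by a lipid and signals with integrins. Its CPM were 32.7, 32.5 and 27.0 in the controls and 27.0, 26.6 and 26.7 in the PDZK1 libraries. Control replicates 1 and 2 were the highest, while control replicate 3 was almost level with the PDZK1 libraries. The means were 30.7 ± 3.21 and 26.8 ± 0.207 CPM (SD, n = 3), and the log2 fold change was -0.20 (interval -0.37 to -0.03, unadjusted p = 0.0267, edgeR adjusted p = 0.207). In FPKM (fragments scaled by transcript length and library depth) the groups overlapped, at 23.4, 22.5 and 18.8 against 19.3, 18.9 and 18.7. Without control replicate 3 the log2 fold change was -0.28 and passed the threshold (edgeR adjusted p = 0.0198).

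PLGRKT (ENSG00000107020, minus strand, chr9:5357973-5437878) encodes a transmembrane receptor that binds plasminogen. Its CPM were 12.5, 12.1 and 11.6 in the controls and 12.5, 10.4 and 13.1 in the PDZK1 libraries. The groups overlapped, the PDZK1 libraries reaching both below and above the controls. The means were 12.1 ± 0.470 and 11.96 ± 1.41 CPM (SD, n = 3), and the log2 fold change was -0.01 with an interval of -0.25 to 0.22 (edgeR adjusted p = 0.968). The sign turned with library totals in place of TMM (0.0042) and without control replicate 1 (0.014) or PDZK1 replicate 2 (0.081).

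SERPINE2 (ENSG00000135919, minus strand, chr2:223975112-224039319) encodes protease nexin-1, an inhibitor of thrombin, urokinase and other serine proteases. Its counts were 1361, 1315 and 1388 in the controls and 1586, 1833 and 1572 in the PDZK1 libraries. In CPM these were 42.1, 42.6 and 50.3 against 49.5, 55.9 and 49.6. The groups overlapped because control replicate 3 was higher than PDZK1 replicates 1 and 3. The means were 45.0 ± 4.60 and 51.7 ± 3.70 CPM (SD, n = 3), and the log2 fold change was 0.20 (interval 0.02 to 0.38, unadjusted p = 0.0338, edgeR adjusted p = 0.235). Without control replicate 3 the log2 fold change was 0.29 and passed the threshold (edgeR adjusted p = 0.0297).

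SERPINB2 (ENSG00000197632, plus strand, chr18:63871692-63903890) encodes plasminogen activator inhibitor 2, much of which stays inside the cell. Its counts were 548, 403 and 178 in the controls and 1459, 1025 and 1701 in the PDZK1 libraries. In CPM these were 17.0, 13.0 and 6.45 against 45.5, 31.3 and 53.6. The lowest PDZK1 library was well above the highest control, but within each group the values spread widely, with control replicate 3 the lowest of all. The means were 12.2 ± 5.31 and 43.5 ± 11.3 CPM (SD, n = 3). On the log2 scale the difference was 1.83 (SE 0.423, with an interval from 0.69 to 2.96, unadjusted p = 0.0101, edgeR adjusted p = 0.125). Across the 6 fits that left out a library it ran from 1.53 to 2.15, and in none of these did it pass the threshold (edgeR adjusted p 0.119 to 0.309). SERPINB2 passed in DESeq2 (log2 fold change 1.84, adjusted p = 0.00165), where 2 members were called beside 5.81% of all genes tested. It also passed in a non-robust edgeR fit (adjusted p = 0.0266).

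SERPINE2 and PLAUR passed in edgeR only in the fit without control replicate 3. Without it 3 members passed the threshold in edgeR, PLAU and SERPINE2 higher and PLAUR lower, beside 6.32% of all genes tested, while SERPINB2 did not pass. The SD of log2 CPM within groups was 0.56 for SERPINB2, above 99.3% of the 11100 genes with a mean of at least 5 CPM. It was 0.087 for PLAU, above 58.8% of those genes. The other members lay between, at 0.11 for PLAUR, 0.12 for SERPINE2 and PLGRKT and 0.27 for PLAT. The intervals of PLAT, PLAUR, PLGRKT and SERPINE2 all lay inside a 1.5-fold change in either direction.

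**Figure D2:**
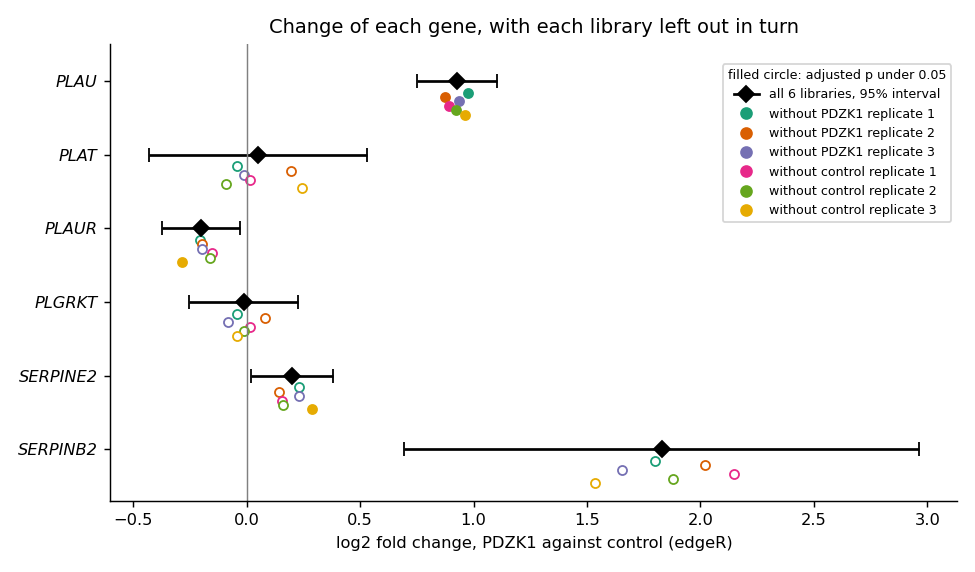
Fitted log2 fold change, PDZK1 against control, of each gene with its 95% interval (diamond and bar, all 6 libraries) and the value with each library left out in turn (circles, filled where the adjusted p was under 0.05). PLAU is filled in all 6, PLAUR and SERPINE2 only without control replicate 3, and SERPINB2 in none.

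The promoters of members were compared by their RefSeq windows on GRCh38.p14, 250 bases before to 50 after the start. This start is not the outer end of the GENCODE gene span given above. The windows of SERPINB2, PLAU, PLAUR and SERPINE2 lay inside those spans. Windows of 5 members were used, 7 in all. Each was searched on both strands. The AP-1 motif was written TGANTCA and was found in 7.71% of 35116 windows. The ETS motif was written AGGAAG and was found in 33.6% of them. The letters TATAAA, a core promoter element, were found in 11.5%. SERPINB2 is shown because it had the largest fitted difference, and PLGRKT because its fitted difference was the smallest. Both are written 5′ to 3′ on the gene's strand, with matched letters in capitals.
SERPINB2: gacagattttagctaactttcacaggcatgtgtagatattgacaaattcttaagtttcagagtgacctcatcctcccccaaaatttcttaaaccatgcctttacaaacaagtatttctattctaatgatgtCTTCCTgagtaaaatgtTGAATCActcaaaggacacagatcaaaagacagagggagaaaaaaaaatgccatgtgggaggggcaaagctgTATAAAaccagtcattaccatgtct
PLGRKT: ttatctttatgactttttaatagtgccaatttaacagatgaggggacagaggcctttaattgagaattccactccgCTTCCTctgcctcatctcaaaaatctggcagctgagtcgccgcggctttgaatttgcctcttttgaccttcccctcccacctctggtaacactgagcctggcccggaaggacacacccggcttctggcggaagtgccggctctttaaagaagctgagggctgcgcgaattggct
The SERPINB2 stretch is chr18:63887455-63887699, plus strand, and ends where an annotated exon begins. From 5′ to 3′ its capitals mark an ETS match 119 bases, an AP-1 match 102 bases and a TATA match 30 bases before the start, none of which overlap. The PLGRKT stretch is chr9:5437926-5438175, minus strand, with an ETS match 174 bases before the start and no AP-1 or TATA match. The PLAUR window had an AP-1 match 186 bases and an ETS match 15 bases before the start. Of the windows for PLAU, the one at chr10:73910882-73911181 had an ETS match 221 bases before the start and the other had none of the 3 motifs. Both SERPINE2 windows also lacked them. A match describes letters in a window and says nothing of a factor's binding.

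Levels were compared between genes in FPKM, which divides by length. In the controls the order of mean FPKM was PLAUR (21.6 ± 2.45), SERPINE2 (18.7 ± 1.74), PLGRKT (11.3 ± 0.468), SERPINB2 (5.79 ± 2.50), PLAU (5.35 ± 0.263) and PLAT (1.22 ± 0.355). PLAUR and SERPINE2 overlapped in range, as did SERPINB2 and PLAU, while the other neighbours in this order did not. In the PDZK1 libraries the order was SERPINE2 (21.4 ± 1.48), SERPINB2 (20.9 ± 5.32), PLAUR (19.0 ± 0.316), PLGRKT (11.2 ± 1.35), PLAU (10.4 ± 0.755) and PLAT (1.27 ± 0.280). There SERPINE2, SERPINB2 and PLAUR overlapped with their neighbours, and so did PLGRKT and PLAU. PLAT was the lowest member in every library.

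As ratios of FPKM, PLAU to its receptor PLAUR was 0.218, 0.237 and 0.300 in the controls and 0.499, 0.589 and 0.553 in the PDZK1 libraries. All 3 PDZK1 libraries were above all controls, with means of 0.251 ± 0.0428 and 0.547 ± 0.0455 (SD, n = 3). The inhibitor SERPINE2 to PLAU was 3.42, 3.36 and 3.68 in the controls and 2.14, 2.08 and 2.00 in the PDZK1 libraries. These did not overlap either, with the PDZK1 libraries lower. SERPINB2 to PLAU ranged from 0.548 to 1.57 in the controls and from 1.36 to 2.48 in the PDZK1 libraries, and the groups overlapped. SERPINB2 to SERPINE2 ranged from 0.149 to 0.459 in the controls and from 0.653 to 1.24 in the PDZK1 libraries, without overlap. The ratios rest on the same values as the levels above and carry no test.

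**Figure D3:**
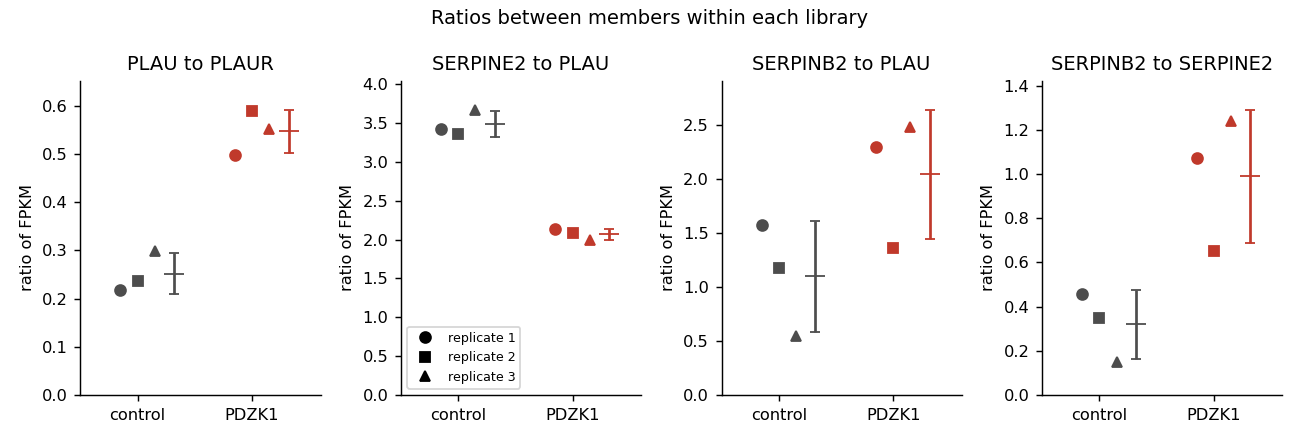
Ratios of FPKM between members in each library (points, 3 per group), with the group mean and SD beside them. PLAU to PLAUR is 0.218 to 0.300 in the controls and 0.499 to 0.589 in the PDZK1 libraries, and SERPINB2 to PLAU overlaps between the groups.

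Other genes of the pathway were taken from 8 lists with 76 genes in all. Of these, 57 were tested and 8 passed the threshold in edgeR, 2 higher and 6 lower, which is 14.0% beside 3.83% of all genes tested (1.41% higher and 2.41% lower). Their median log2 fold change was 0.01, beside -0.00025 over all genes tested. The lists were chosen with earlier results of these data known, so nothing is read from their share. Higher were LRP1 (log2 fold change 0.16), the endocytic receptor that clears urokinase bound to inhibitor, and LTBP1 (0.37), which holds latent TGF-beta in the matrix. Lower were ENO1 (-0.32), a glycolytic enzyme that binds plasminogen at the cell surface, EGFR (-0.19), F3 (tissue factor, -0.26), TFPI (its inhibitor, -0.16), JUN (-0.15) and MST1R (-1.51). Apart from MST1R, their edgeR adjusted p-values ran from 0.0108 to 0.0496. ENO1 has 4 numbered pseudogenes that could share its reads. MST1R, the receptor for macrophage-stimulating protein, stood at 29.1, 24.9 and 21.1 CPM in the controls and 8.89, 7.96 and 9.49 CPM in the PDZK1 libraries. It was lower in every PDZK1 library and had an edgeR adjusted p = 0.000326. MST1R passed in all 6 fits that left out a library. Of these 6 fits, ENO1 and F3 passed in 3, EGFR and LTBP1 in 2, LRP1 and JUN in 1, and TFPI in 0. The number of list genes that passed was 4 without control replicate 1 (beside 1.94% of all genes tested), 1 without control replicate 2 (1.34%) and 10 without control replicate 3 (6.32%). Leaving out a PDZK1 library gave 1 for replicate 1 (beside 1.31% of all genes tested), 3 for replicate 2 (2.12%) and 2 for replicate 3 (1.49%).

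By role, plasminogen itself (PLG) reached at most 5 counts in any library, and the fibrinogen genes FGA, FGB and FGG had 0 counts. Among the other activators 2 were tested and 0 passed in edgeR, the more abundant being F12 (factor XII), at 1.07 and 1.47 CPM (log2 fold change 0.46, adjusted p = 0.581). None of these had an unadjusted p under 0.05 or passed in DESeq2 or limma-voom. Among other inhibitors of plasmin and its activators, 4 were tested and 0 passed, with TFPI2, a matrix-bound protease inhibitor, at 49.7 and 55.0 CPM. In that list 1 gene had an unadjusted p under 0.05, and 0 passed in DESeq2 or limma-voom. Of 4 genes for plasminogen binding at the cell surface 1 passed (ENO1, lower), with a median of -0.22. Of 14 tested co-receptors and clearance genes of the urokinase receptor 2 passed, LRP1 higher and EGFR lower, with a median of 0.08. On the thrombin and tissue factor side 2 of 8 passed, F3 and TFPI, both lower. The list of growth factors activated by plasmin or its activators also holds receptors and a binding protein of such factors. In it 2 of 10 passed, LTBP1 higher and the receptor MST1R lower. MST1, the gene for the ligand of MST1R, was at -0.06 (edgeR adjusted p = 0.878). Of 12 other clade B serpins, relatives of SERPINB2, 7 were at or under 3 counts in all libraries, and 0 of the 5 tested passed in edgeR, DESeq2 or limma-voom or had an unadjusted p under 0.05. SERPINB6, the most abundant of them, stood at 101 and 106 CPM (edgeR adjusted p = 0.502). SERPINB10, which overlaps SERPINB2 on the same strand, had at most 2 counts. Of the 10 AP-1 and ETS factors, 1 passed (JUN, lower), with a median of -0.06 over the list.

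**Figure D4:**
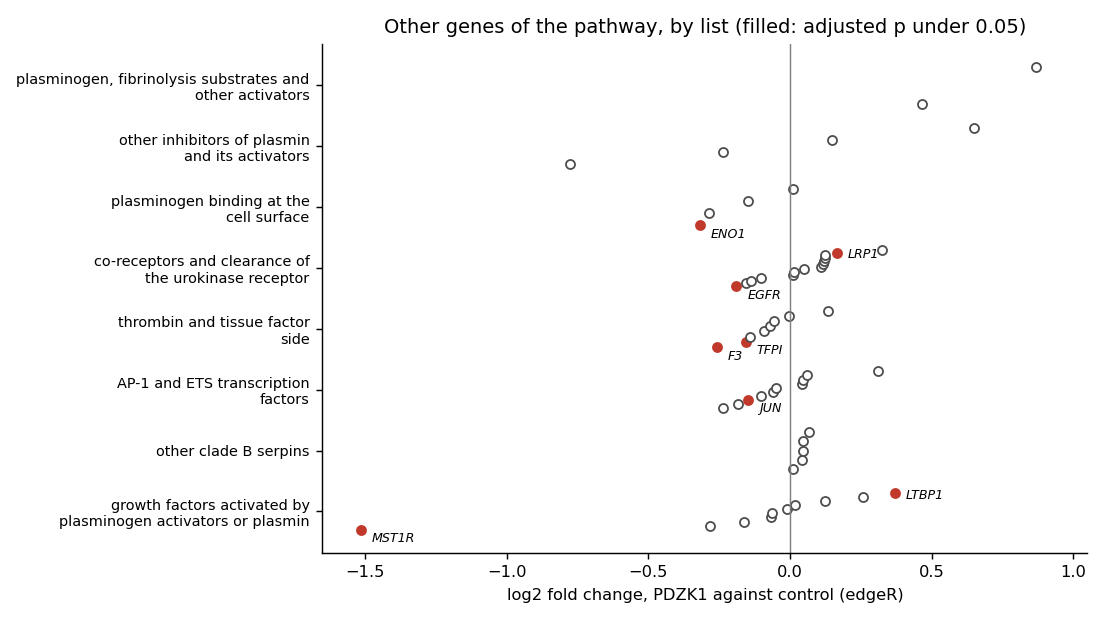
Fitted log2 fold change, PDZK1 against control, of each tested gene of the 8 pathway lists (one point per gene, filled and named where the adjusted p was under 0.05). MST1R at -1.51 lies far from the other genes past the threshold, which range from -0.32 to 0.37.

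Within 1 Mb of the members 112 other genes were tested and 5 were called, which at 4.46% was close to the 3.83% of all genes tested. PLAU had 23 tested neighbours with 1 called in edgeR (P4HA1, -0.30), and their median log2 fold change was -0.0094. PLAT had 18 with 1 called (SFRP1, 0.35), PLAUR had 42 with 0 called (5 at an unadjusted p under 0.05, 1 in DESeq2 and 0 in limma-voom), and SERPINE2 had 6 with 1 called (AP1S3, -0.25). PLGRKT had 17 with 2 called, IL33 (-1.63, adjusted p = 0.0220) and AK3 (-0.15). SERPINB2 had 6 with 0 called (1 at an unadjusted p under 0.05, 0 in DESeq2 or limma-voom) and a median log2 fold change of 0.06. The neighbours were chosen by position only.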

How the data were processed

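RNA was extracted with Trizol and libraries were made with a VAHTS kit. Per the labels, reads were processed with fastp 0.20.1 and HISAT2 2.2.1 on GRCh38. The counting program and strandedness are not given in the sources used here. The authors deposited estimated counts per gene as whole numbers, in which near-identical genes can share reads, and FPKM, which scale by length and depth. Per-sample columns that matched no sample (3 in the counts, 3 in the FPKM) were not used. Entries named as assembled loci were left out of the test.

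The counts of all 6 libraries were fitted with edgeR 4.0.16 in R 4.3.3 (filterByExpr, TMM scaling, robust quasi-likelihood test without covariates), with Benjamini-Hochberg adjustment over the 13645 genes tested and a threshold of 0.05. The script was tested on simulated data. Errors are SDs over n = 3, and intervals are 95% from the model. Counts limit precision, and floors of 3 counts cover counting error only.

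Alternatives were DESeq2 1.42.0, limma 3.58.1 (voom, and log2 FPKM with pseudocounts of 1 and 0.1), other scalings, count filters, a non-robust fit, testing for more than 1.5-fold change, the replicate number as a block, and each library left out. The rule for naming genes took the 6 members, PDZK1, list genes past the threshold or, failing that, the most abundant of a list, and the 3 genes closest to a called member. Marker genes, neighbours and genes listed at or under the floor were named outside it, after their values were seen. The members and lists were chosen with earlier results of these data known.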

Additional observations from a re-analysis of the deposited data

How the results depend on the processing

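PLAU kept its direction and passed the threshold in all 20 alternatives, and PDZK1 in all 19 (4.92 to 7.21). The count of members past the threshold was 1 in the main fit, 2 with DESeq2, 2 with the non-robust fit, and 1 to 3 with a library left out (3 without control replicate 3). The pathway count was 8, against 1 in the test against a 1.5-fold change, 2 and 2 on log2 FPKM with pseudocounts of 1 and 0.1, 1 without the FPKM filter, and 1 to 10 with a library left out. Over all genes 522 passed, against 793 with DESeq2, 42 in the test against 1.5-fold, 191, 187 and 184 on log2 FPKM (pseudocounts 1 and 0.1, and no filter), and 181 to 875 with a library left out. Each leave-one-out fit also had fewer libraries, and the cause of these differences was not tested. Of the 12 places in the order of levels, 6 were the same by CPM, which does not divide by length. PLGRKT turned sign with library totals only (0.0042) and ranged from -0.081 to 0.081 with a library left out, and PLAT from -0.093 to 0.25.

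Libraries with the same replicate number showed no shared deviation: deviations from the group means correlated at -0.046, -0.056 and -0.14 between them. Libraries with different numbers were not compared in this way, so these values cannot settle whether the libraries were paired. With the replicate number as a block, PLAU stayed past the threshold (0.92), 1 pathway gene and 163 of all genes passed, and SERPINB2 was at 1.86 (edgeR adjusted p = 0.335). The spread of PLAT within groups (SD of log2 CPM 0.27) leaves its interval at -0.43 to 0.53. That SD was above 96.98% of the genes with a mean of at least 5 CPM. PLAT itself, at 3.92 CPM in the controls and 4.05 CPM in the PDZK1 libraries, was below that level. Its SD was therefore ranked against more abundant genes only.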

Other observations

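BEST1, an RPE chloride channel gene, was at 4.32 to 5.60 CPM in 5 libraries and at 358 CPM in PDZK1 replicate 1. In the annotation BEST1 overlaps FTH1, the ferritin heavy chain gene. SERPING1, the C1 inhibitor, stood at 2.97 ± 0.213 CPM in the controls and 1.73 CPM in the PDZK1 libraries, with no overlap between the groups (log2 fold change -0.78, edgeR adjusted p = 0.0926). Both were singled out after their values were seen.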
